A study of Mus musculus with 3 samples.

Results

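The small leucine-rich proteoglycans are a family of secreted matrix proteins, and 9 of its genes were followed here among the 21446 gene identifiers shared by 3 single-cell libraries. The members were chosen by name: the class I genes Dcn, Bgn and Aspn, the class II genes Lum, Fmod, Prelp, Kera and Omd, and the class III gene Ogn. All 9 were listed in each library. The cells came from mandibular molars of Pthrp-mCherry knock-in mice, in which a red fluorescent protein reports the gene for parathyroid hormone-related protein, a marker of cementoblasts and their precursors on the root surface. Reporter-positive cells were sorted at postnatal day (P) 15, at P25 and at 8 weeks, animals were pooled, and each age gave a single 10x 3′ library, so no age had a replicate. The reporter allele was carried by every library.

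Small leucine-rich proteoglycans carry a core of leucine-rich repeats that binds fibrillar collagen, and most of them also carry glycosaminoglycan chains of the chondroitin, dermatan or keratan sulfate type. They set the spacing and thickness of collagen fibrils, and several bind growth factors of the TGF-β and BMP families. In the periodontium they are known from the ligament, where asporin and others are thought to keep the ligament from mineralizing, and from cementum and bone, where osteoadherin (Omd) and biglycan lie in the mineralizing matrix.

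Cells were grouped by unique molecular identifiers (UMIs, counts of captured RNA molecules) of 6 marker genes. A cell passed a marker with at least 2 UMIs of it and a level of at least 2 times that of the whole library. The Ibsp gate, for bone sialoprotein, held 761, 566 and 316 cells in the P15, P25 and 8-week libraries, and the Ifitm5 gate, with or without Ibsp, held 708, 718 and 272, of which 444, 247 and 126 also passed Ibsp. The Hand2 gate held 237, 666 and 472 cells, the Rgs5 gate 267, 261 and 269, and the Pappa2 gate 678, 39 and 21. The Ptprc gate, of immune cells, held 800, 204 and 19 cells, and cells with Epcam but no gate marker numbered 614, 496 and 63. Most cells passed no gate, 9296, 5960 and 3463 in the 3 libraries. The libraries held 12926, 8971 and 5192 cells, with a median of 14253.5, 15834 and 8712.5 UMIs per cell, and shared between 13 and 26 cell barcodes pairwise. The counts of P25 were made with another Cell Ranger version and a longer gene list than the others, which cannot be told apart from the age.

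The gates were checked against further markers before any member was read. All 6 cementoblast markers (Dmp1, Enpp1, Ank, Bmp3, Aqp1 and Sparcl1) stood at over 2 times the library level in the Ibsp gate at P15, and 5 of 6 did at P25 and at 8 weeks. All 5 markers of mature mineralizing cells did so in the Ifitm5 gate in each library, and all 4 periapical markers in the Hand2 gate. At P25 and 8 weeks, the periapical gene Nts also reached 386.9 and 611.2 UMIs per 1000000 summed UMIs (CPM) in the Ibsp gate, against 10.3 at P15. The Rgs5 gate held its label at P15 only: 7 of 7 mural markers were raised there, against 2 of 7 at P25 and 1 of 7 at 8 weeks, and Notch3 stood at 460.7, 26.2 and 9.78 CPM. Cells of the later Rgs5 gate are therefore called by their gate only. In the Pappa2 gate Col13a1 stood at 158.4 CPM in the P15 sum and had no UMI in the 8-week sum. By this marker the label of the gate too rests on P15, and its later sums rest on 39 and 21 cells. Its other listed marker, Spon2, is not given here. The level needed to pass Pappa2 was 63.5 CPM at P15, 5.22 at P25 and 6.80 at 8 weeks. Epithelial markers summed to between 33.7 and 1286 CPM in the 5 mesenchymal gates, the highest value being in the Rgs5 gate at P15, against 20890 to 29500 in Epcam cells. Immune markers summed to at most 71.7 there, and erythroid markers reached 2745 in the Rgs5 gate at P15. The part of such RNA in the members' levels was not tested.

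Most of the members lie in short runs of the mouse genome (GRCm38, GENCODE annotation). Aspn (chr13:49544443-49567565), Omd (chr13:49582462-49592822) and Ogn (chr13:49608046-49624501) follow each other on the plus strand, 14896 and 15223 bases apart, and all 3 overlap Cenpp on the minus strand. Dcn (chr10:97479609-97518143), Lum (chr10:97565128-97572703) and Kera (chr10:97606879-97613692) share the plus strand of chromosome 10. Prelp (chr1:133910304-133921414, minus strand) and Fmod (chr1:134037254-134048277, plus strand) are 115839 bases apart, and Bgn lies alone at chrX:73483602-73495933. Cell Ranger counts reads in the sense of a gene, so that reads of Cenpp are not taken for those of the genes across from it.

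The 100 bases before the RefSeq start (GRCm38.p6) of the chromosome 13 neighbours are shown because these 3 genes, side by side on a single strand, had unlike levels across the gates. Capitals mark a match to TGTGGT, read on either strand, a core bound by RUNX factors.
Aspn (chr13:49544343-49544442, plus strand): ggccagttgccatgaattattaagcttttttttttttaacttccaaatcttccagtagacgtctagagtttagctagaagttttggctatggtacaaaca
Omd (chr13:49582362-49582461, plus strand): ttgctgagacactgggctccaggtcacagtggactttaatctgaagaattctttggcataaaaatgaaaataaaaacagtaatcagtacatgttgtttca
Ogn (chr13:49607915-49608014, plus strand): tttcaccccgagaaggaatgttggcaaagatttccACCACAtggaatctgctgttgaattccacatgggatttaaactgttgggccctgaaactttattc
The motif was found in the 300-base promoter window of Ogn, 65 bases before the start, and in that of neither neighbour. It is held by 16.8% of 32851 mouse promoter windows. TATAAA, the TATA box core, also read on either strand, occurred further upstream in the windows of Aspn (207 and 178 bases before the start) and Ogn (229 and 227 bases). The matches in Ogn overlap and are a single stretch read on both strands. TATAAA was held by 13.6% of all windows. TGANTCA, an AP-1 core, occurred in none of the 7 member windows that could be read and in 7.81% of all. The 3 windows were poor in G and C, with 31.0% for Aspn, 37.7% for Omd and 42.3% for Ogn, against a median of 52.7% over all windows and 63.7% for Bgn. Windows were read for Aspn, Bgn, Fmod, Prelp, Kera, Omd and Ogn.

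Part of every level in droplet data is free RNA from other cells, and its size was read in cells that should not make these proteins. In the Ptprc gate at P15, the 6 abundant members stood between 18.1% (Lum) and 28.9% (Ogn) of their level in the whole library, and Col1a1, the main collagen of the sorted cells, at 20.2%. Ibsp itself was lower, at 4.07% there and at 2.40% in Epcam cells at P15. Cells that pass Ibsp, at 5689 CPM or more at P15, are kept out of both groups by definition. How far this lowers the share of Ibsp was not tested. At P25 the Ptprc shares of the 6 abundant members ran from 8.13% (Ogn) to 23.8% (Dcn). Epcam cells held less of these members, from 6.54% (Aspn) to 16.6% (Dcn) at P15, and from 0.717% (Aspn) to 8.29% (Bgn) at 8 weeks. The Ptprc gate of 8 weeks had 19 cells, under the 20 needed for a sum, and was not used as a background. The UMIs of the 6 abundant members were uneven over Ptprc cells. At P15 the 10% of cells with most held from 68.47% (Bgn) to 93.25% (Ogn) of them, and at P25 they held 95.08% of the Dcn UMIs. Doublets were not called, so such levels, called free RNA levels below, may hold other RNA too, which was not tested.

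**Figure D1:**
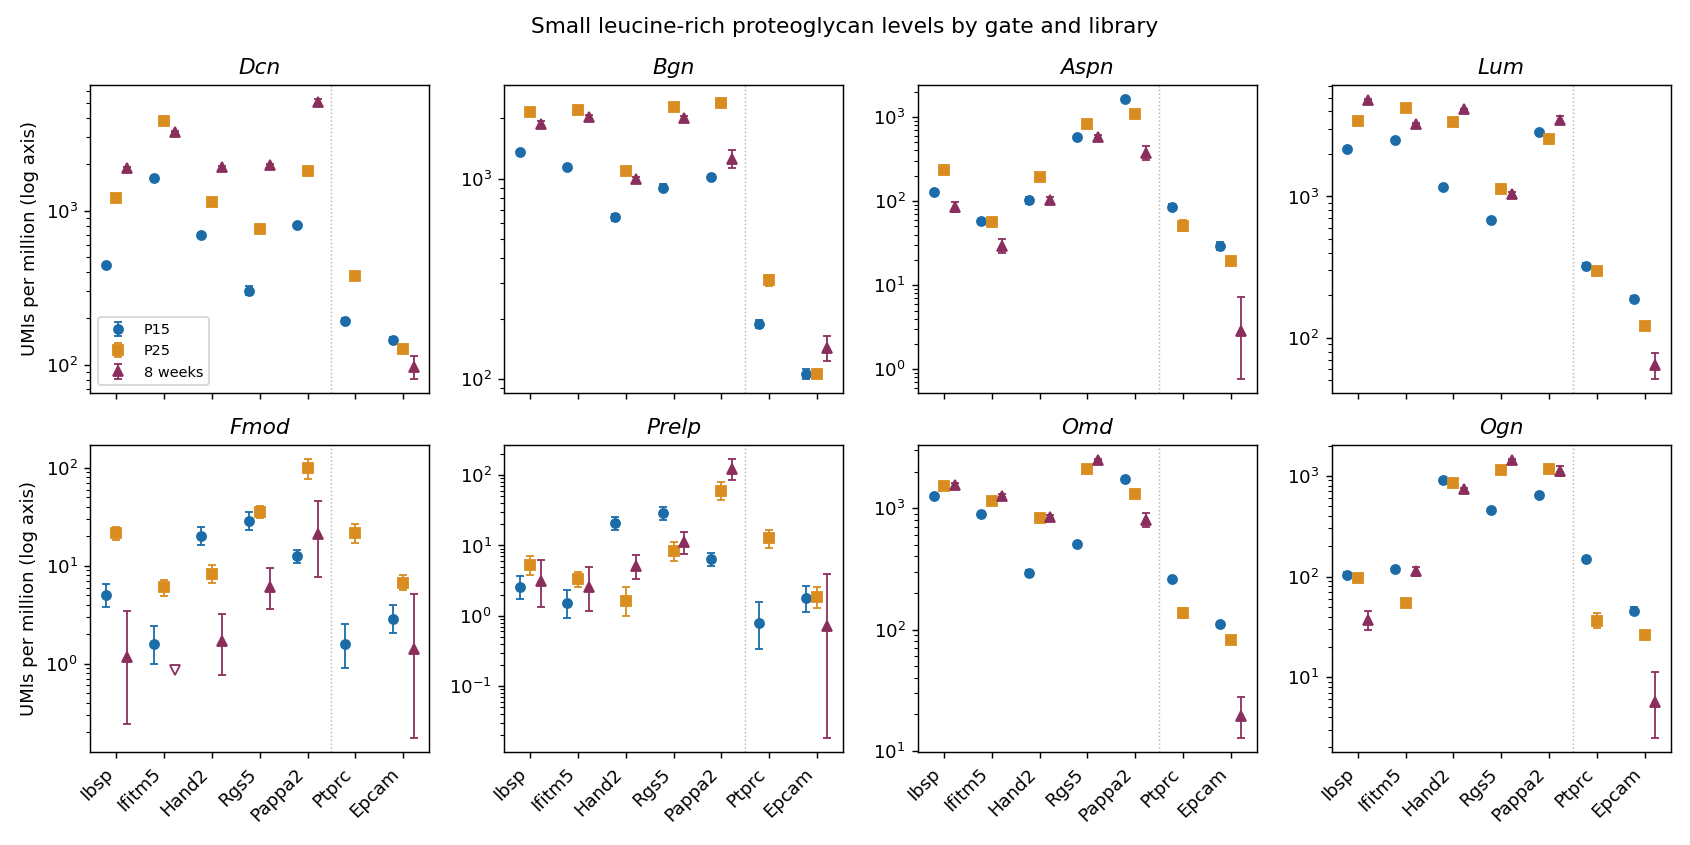
Levels of 8 members in CPM, over the summed UMIs of each gate (log axis), with exact 95% Poisson intervals, for P15 (circles), P25 (squares) and 8 weeks (triangles), and an open triangle at the level of 3 UMIs where none was counted. Ogn lay between 36.8 and 117.5 in the Ibsp and Ifitm5 gates and between 457.2 and 1434 in the Hand2, Rgs5 and Pappa2 gates. The Ptprc and Epcam cells right of the dotted line give the levels used as background, which may hold RNA of doublets too.

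Among the class I genes, decorin (Dcn) organises collagen fibrils and binds TGF-β. In the Ibsp gate the P15, P25 and 8-week sums held Dcn at 447.3, 1214 and 1886 CPM. In the Ifitm5 gate it was at 1633, 3853 and 3259, above the Ibsp gate in each library. The Hand2 gate gave 691.4, 1145 and 1918, and the Rgs5 gate 303.1, 757.7 and 1977. The Pappa2 gate reached 803.4, 1810 and 5067, so that at 8 weeks its Dcn level was the highest of the 5 gates. Dcn was lowest at P15 in every gate, while its free RNA level was 144.7, 127.0 and 96.9 CPM in Epcam cells but 192.3 at P15 and 378.7 at P25 in the Ptprc gate, 1.97 times higher (1.84 to 2.11).

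Biglycan (Bgn), the close relative of decorin that is abundant in bone and cementum matrix, varied least of the abundant members. It stood at 1355, 2143 and 1875 CPM in the Ibsp gate and at 1139, 2203 and 2029 in the Ifitm5 gate. The Hand2 gate was below both in each library, at 640.1, 1092 and 992.0. The Rgs5 gate had it at 900.8, 2268 and 1997, and the Pappa2 gate at 1016, 2384 and 1250. P25 gave the highest Bgn level in each of the 5 gates.

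Asporin (Aspn), which binds collagen and calcium and restrains TGF-β and BMP signals, followed another order. It was at 1621, 1094 and 375.7 CPM in the Pappa2 gate and at 571.0, 815.8 and 584.5 in the Rgs5 gate, so that the Pappa2 gate led in the P15 and P25 libraries and the Rgs5 gate at 8 weeks. The Ibsp gate had 128.0, 237.2 and 86.1, and the Hand2 gate 102.2, 194.5 and 103.5. In the Ifitm5 gate Aspn stood at 57.7, 56.8 and 29.4, and at P15 this was below the free RNA level of the Ptprc gate, 85.7. At P25 its ratio to the Ptprc gate was 1.11 (95% interval 0.949 to 1.30), so that Aspn of Ifitm5 cells could not be told from free RNA in those libraries by that background. Against the lower background of Epcam cells, 29.3 and 19.5 CPM, the Ifitm5 level was 1.97 times higher (1.74 to 2.23) at P15 and 2.92 times (2.59 to 3.29) at P25.

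Of the class II genes, lumican (Lum), a keratan sulfate proteoglycan of collagen fibrils, was the most abundant in cementoblast-type gates. It stood at 2157, 3431 and 4811 CPM in the Ibsp gate, at 2523, 4236 and 3269 in the Ifitm5 gate and at 1176, 3350 and 4129 in the Hand2 gate. The Pappa2 gate was alike, with 2843, 2536 and 3455. The Rgs5 gate stood apart, at 679.1, 1131 and 1041, below each of the other mesenchymal gates in each library.

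Osteoadherin (Omd), a keratan sulfate proteoglycan of mineralizing tissue that binds hydroxyapatite, was at 1254, 1515 and 1553 CPM in the Ibsp gate and at 894.5, 1135 and 1261 in the Ifitm5 gate. The Hand2 gate was the lowest in the P15 and P25 libraries, at 293.2 and 832.3, and had 847.2 at 8 weeks. Omd was not confined to the Ibsp and Ifitm5 gates: the Rgs5 gate held 504.1, 2087 and 2491, and the Pappa2 gate 1728, 1319 and 804.1. In the Rgs5 gate at P15 the median cell stood at 60.3, and the 10% of cells with most held 64.65% of the Omd UMIs. The free RNA level of the Ptprc gate was 259.3 there.

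Fibromodulin (Fmod), prolargin (Prelp) and keratocan (Kera), collagen-binding members known best from tendon, cartilage and cornea, were sparse. Fmod was highest in the Pappa2 gate at P25, with 98.7 CPM from 39 cells, and lay between 0 and 35.7 in the other mesenchymal gates. In that sum the median cell had 0 CPM of Fmod, and the 10% of cells with most held 85.14% of its UMIs. Prelp in the Pappa2 gate was at 6.38, 60.0 and 122.9, and in the other mesenchymal gates between 1.51 and 28.6. At P25 the Ptprc gate held 21.4 of Fmod and 12.6 of Prelp, above the Hand2 and Ifitm5 gates for both. Kera had 0 UMIs in 12 of the 15 sums of these gates, and its highest was 2 UMIs in the Ifitm5 gate at P25. A count of 0 allowed up to 0.256 CPM in the Ibsp gate at P15, and Kera failed the filter on low counts, so no difference in it was detectable at this depth.

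Osteoglycin (Ogn), the class III member, also called mimecan, separated the gates most clearly. It stood at 104.4, 96.1 and 36.8 CPM in the Ibsp gate and at 117.5, 54.5 and 112.3 in the Ifitm5 gate. The Hand2 gate held 912.3, 848.1 and 737.5, the Rgs5 gate 457.2, 1132 and 1434, and the Pappa2 gate 648.1, 1181 and 1110. Every sum of these 3 gates was above every sum of the Ibsp and Ifitm5 gates. In the Rgs5 gate at P15, however, the median cell had 0 CPM of Ogn. The 10% of its cells with most held 71.43% of the Ogn UMIs. At P15 the Ibsp and Ifitm5 levels were below that of the Ptprc gate, 150.1, at 0.696 (0.645 to 0.751) and 0.783 (0.729 to 0.840) of it. They were 2.29 (2.08 to 2.53) and 2.58 (2.35 to 2.84) times the level of Epcam cells. The 2 backgrounds thus disagree, and how much of this Ogn is background cannot be told at P15. At P25 the Ptprc gate held 36.5 CPM, below the Ibsp and Ifitm5 gates. Cells that passed Ibsp and Hand2 together held 416.0 at P15 (27 cells), 78.7 at P25 and 44.2 at 8 weeks, near the Ibsp gate and far below the Hand2 gate in the later libraries.

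The 15 sums of the 5 mesenchymal gates were compared in a single edgeR quasi-likelihood fit of 12320 genes, each gate against the Ibsp gate, with the 3 libraries as replicates. The spread that the test measures is thus that between libraries of different age. Of the 9 members 8 were tested, all but Kera. Sums of a library deviated together across gates, so a fit with the library as a block is given where it changes a call. All fold changes below are on the log2 scale with their standard error and the Benjamini-Hochberg adjusted p over all genes. The standard error was derived from the test, as the size of the log2 fold change divided by the square root of its F statistic. Where the sums of a gate are said not to overlap those of the Ibsp gate, this only describes the 3 sums of each. The share of all genes without overlap was not counted, so it lends a member no support.

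**Figure D2:**
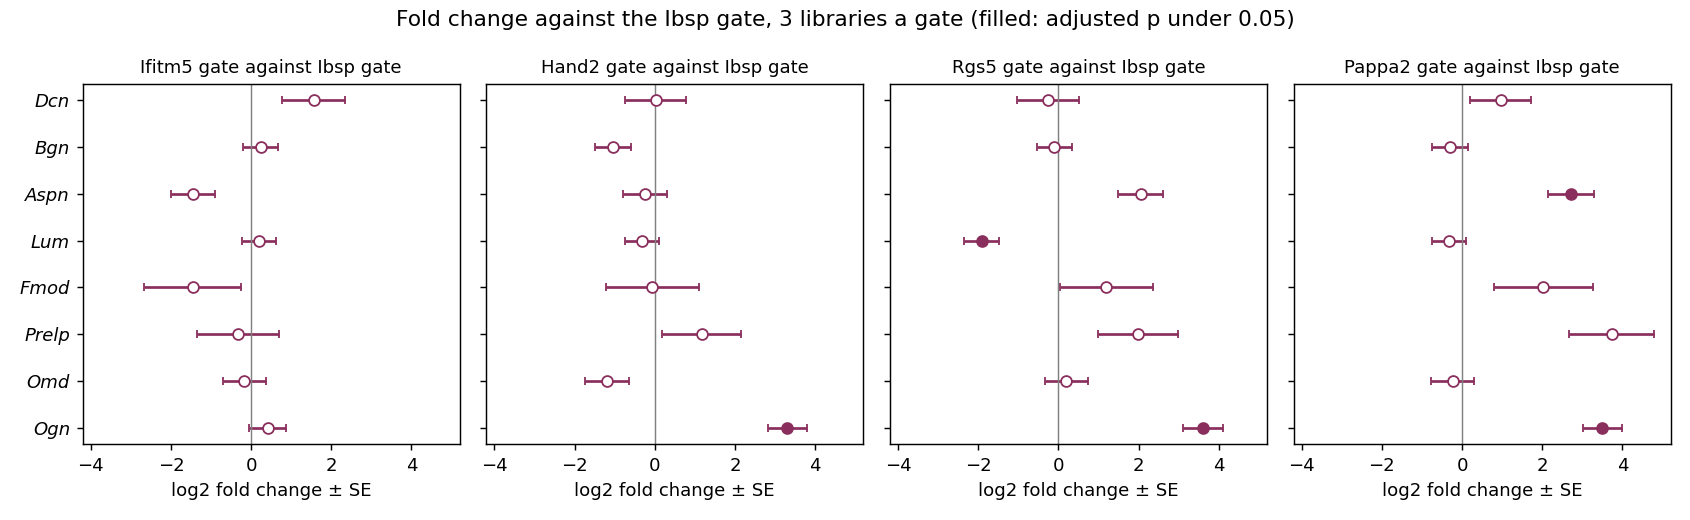
The log2 fold change of 8 members in the Ifitm5, Hand2, Rgs5 and Pappa2 gates against the Ibsp gate (x axis; bars are the standard error, 3 libraries a gate), with filled points for an adjusted p under 0.05 in the fit without a block. Ogn was filled in the Hand2, Rgs5 and Pappa2 gates at 3.31, 3.61 and 3.50, Lum in the Rgs5 gate at -1.91 and Aspn in the Pappa2 gate at 2.71.

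Between the Ifitm5 and Ibsp gates, which sets cells with Ifitm5 against cells with Ibsp alone, no member passed the test by edgeR and none by DESeq2, while 1 (Aspn) had an unadjusted p under 0.05. Of all genes, 0.942% rose and 0.365% fell at the adjusted threshold, and the share at the unadjusted p was not counted. Dcn was higher in the Ifitm5 gate in 3 of 3 libraries by 1.56 ± 0.78 (edgeR adjusted p = 0.456). With the library as a block its difference was 1.72 ± 0.32 and passed (adjusted p = 0.0182), in a fit that called 3.61% of all genes. Aspn gave -1.45 ± 0.55 (adjusted p = 0.269, with the block 0.0794) and its sums did not overlap between the gates. Bgn (0.24 ± 0.44), Lum (0.19 ± 0.42) and Omd (-0.17 ± 0.54) differed by less than their error. The median member differed by 0.01.

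In the Hand2 gate, of periapical mesenchyme, Ogn rose by 3.31 ± 0.49 over the Ibsp gate (edgeR adjusted p = 0.00455), a 9.94-fold difference seen in 3 of 3 libraries. Free RNA was not subtracted for the fit. In the Ibsp gate at P15 Ogn was below the Ptprc level and above the Epcam level, so part or all of it may be background. The sizes of this fold and of those for the Rgs5 and Pappa2 gates depend on that part. Ogn was the only one of the 8 members to pass in this comparison, where 0.674% of all genes rose and 1.47% fell. Bgn gave -1.04 ± 0.44 (adjusted p = 0.301) without overlap between the gates, and with the library block -1.06 ± 0.20, which passed (adjusted p = 0.0118), in a fit that called 5.4% of all genes. Omd gave -1.19 ± 0.55 (adjusted p = 0.357), also without overlap. Dcn differed by 0.02 ± 0.76 and Lum by -0.32 ± 0.42. The median of the members was -0.15 and that of all genes 0.01.

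In the Rgs5 gate Ogn rose by 3.61 ± 0.49 (edgeR adjusted p = 0.00296, 12.2-fold) and Lum fell by 1.91 on the log2 scale (standard error 0.44, adjusted p = 0.0282, 3.75-fold), both in 3 of 3 libraries and without overlap. Of all genes 3.11% rose and 2.33% fell. Aspn was 4.14-fold higher without overlap, at 2.05 ± 0.56, and just missed the threshold (adjusted p = 0.0509). With the block it passed at 2.19 ± 0.40 (adjusted p = 0.00856), in a fit that called 10.4% of all genes. Since the mural markers held only at P15, the comparison was repeated, by a choice made after the data were seen, with the P15 sum of the gate alone and with the P25 and 8-week sums alone. The Ibsp gate kept its sums of all 3 libraries in both, so that age is mixed into these differences. The P15 sum is a lone sample, whose fit assumes that it varies like the sums of the other gates. In it, the 10% of cells with most held 71.43% of the Ogn UMIs, so its level does not describe the typical cell. Ogn gave 2.33 with the P15 sum and 3.99 with the later sums (edgeR adjusted p = 0.000699). Lum gave -2.53 with the P15 sum and -1.67 with the later sums, where it did not pass (edgeR adjusted p = 0.0614).

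In the Pappa2 gate both Ogn (3.50 ± 0.49, edgeR adjusted p = 0.00656, 11.3-fold) and Aspn (2.71 ± 0.57, adjusted p = 0.0428, 6.56-fold) rose, in 3 of 3 libraries and without overlap, against 0.649% of all genes that rose and 0.584% that fell. The fit with the block called the same pair, among 2.96% of all genes. Prelp was 13.2-fold higher at 3.73 ± 1.07 without overlap and did not pass (adjusted p = 0.12). Its level in this gate rests on the 39 and 21 cells of the later libraries, where the 10% of cells with most held 66.67% and 65.71% of its UMIs. Prelp passed by DESeq2 (adjusted p = 0.000822). The P15 sum of the gate alone, chosen after the data were seen, was set against the Ibsp sums of all 3 libraries. Aspn then gave 3.40, Ogn 3.0 and Prelp 0.78, as sizes only, under the same assumption for a lone sample. In all 4 comparisons, no member passed once the P25 library or the 8-week library was left out, when between 1 and 21 genes passed in all, and the direction of each passing member stayed.

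With age, the members were compared within each gate as the ratio of the level at 8 weeks to that at P15, with an exact interval for counting error only, since each age is a single library. A gene was counted where either level reached 50 CPM, and called at a difference of 2-fold or more. In the Ibsp gate 2 of 6 members were higher, Dcn by 4.22-fold (4.06 to 4.39) and Lum by 2.23-fold (2.18 to 2.28), against 2.71% of 3249 genes. The periapical marker Nts differed in this gate too, with 10.3 CPM at P15 and 611.2 at 8 weeks, so that age cannot be told apart from the kind of cell gated. Ogn was lower there, at 0.352 (0.282 to 0.435) of its P15 level, against 1.85% of genes. In Epcam cells its free RNA level stood at 0.125 (0.0538 to 0.248) of that at P15, and when the Epcam level was subtracted, a setting added once the data had been seen, Ogn was within 2-fold (log2 ratio -0.92). In the Ifitm5 gate 0 of 6 members passed 2-fold, where 3.06% of genes were higher and 3.62% lower, but Dcn was just inside at 1.995-fold (1.95 to 2.04).

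In the Hand2 gate Dcn (2.77-fold, 2.67 to 2.89), Lum (3.51-fold, 3.41 to 3.62) and Omd (2.89-fold, 2.72 to 3.07) were higher at 8 weeks and none of the 6 members was lower, against 6.29% and 3.32% of 3373 genes. Ogn was at 0.808 (0.774 to 0.844) of its P15 level. The level needed to pass Hand2 was 23.37 CPM at P15 and 152.8 at 8 weeks. Cells that passed both Ibsp and Hand2, outside this gate, numbered 27 and 299. Age cannot be told apart from the kind of cell gated in the Hand2 gate either. In the Rgs5 gate 4 of 6 were higher, Dcn by 6.53-fold, Omd by 4.94-fold, Ogn by 3.14-fold and Bgn by 2.22-fold, and none was lower, against 8.9% and 9.67% of 3608 genes. Mural markers of this gate were lower at 8 weeks as well, and age cannot be told apart from the kind of cell gated. Aspn stayed level in it, at 1.02 (0.958 to 1.09).

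The Pappa2 gate gave differences in both directions. Dcn (6.31-fold, 5.97 to 6.66) and Prelp (19.3-fold, 12.6 to 28.8) were higher at 8 weeks, against 12.6% of 3569 genes, while Aspn (0.232, 0.190 to 0.280) and Omd (0.465, 0.407 to 0.530) were lower, against 4.54% of genes. At 8 weeks the median cell had 0 CPM of Prelp, and the 10% of cells with most held 65.71% of its UMIs, so its ratio does not describe the typical cell. The 8-week sum held 21 cells and no UMI of the gate's marker Col13a1, so that age cannot be told apart from the kind of cell there either. Over the 5 gates Dcn was the member with the most calls, higher in 4 gates and at 1.995-fold in the Ifitm5 gate. The median log2 ratio of the counted members lay between 0.30 and 1.40 and that of all counted genes between -0.16 and 0.11.

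**Figure D3:**
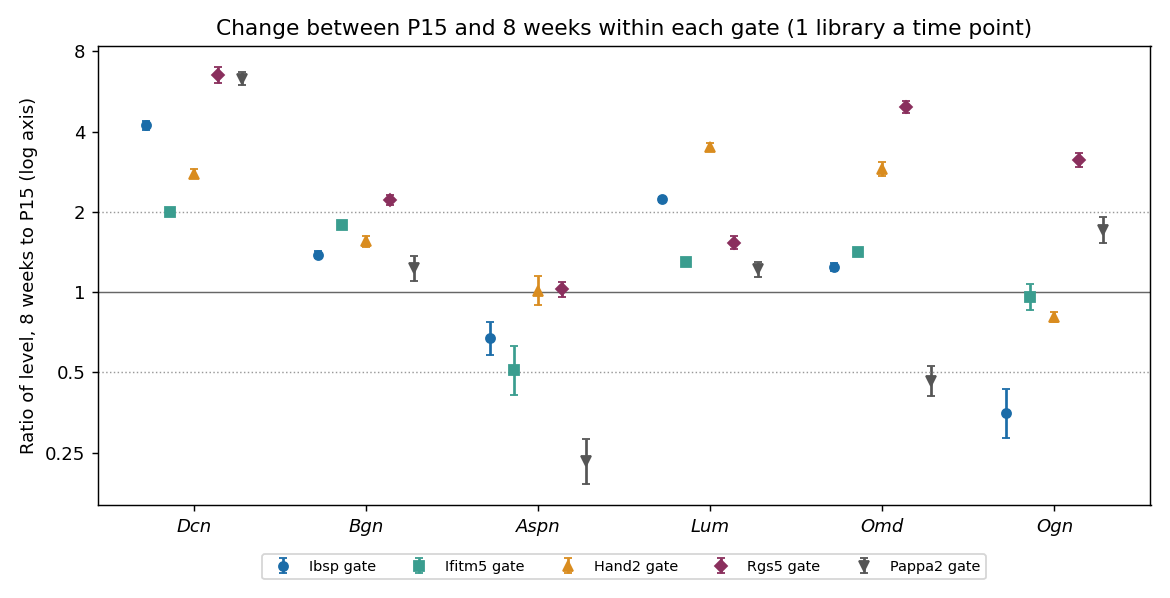
Ratio of the level at 8 weeks to that at P15 (log axis) for 6 members in each of the 5 mesenchymal gates, with exact 95% intervals and dotted lines at 2-fold. Dcn was above 1 in every gate, from 1.995 in the Ifitm5 gate to 6.53 in the Rgs5 gate, whereas Omd ranged from 0.465 in the Pappa2 gate to 4.94 in the Rgs5 gate.

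How the RNA was spread over cells was read after each cell had been thinned to 3000 UMIs, which left out 3499 of 27089 cells. In the 3 libraries Ogn had a UMI in 11.9%, 7.95% and 4.43% of Ibsp cells, close to the 10.4% and 4.93% of Ptprc cells at P15 and P25. In the Hand2 gate the share was 76.1%, 60.8% and 55.2%, and in the Rgs5 gate 29.8%, 77.7% and 88.3%. Without thinning, the shares of the Ibsp gate were 28.4%, 21.4% and 16.1% and those of the Hand2 gate 93.7%, 79.6% and 74.2%. The median depth at P15 was 14584 UMIs in the Ibsp gate, 18302 in the Hand2 gate and 10480.5 in the Ptprc gate.

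Aspn had a UMI in 64.1%, 60.4% and 61.4% of Rgs5 cells and in 80.4% of Pappa2 cells at P15, against 13.5%, 13.9% and 8.86% of Ibsp cells and 7.18% and 6.404% of Ptprc cells. What Aspn the Ibsp gate held was uneven, since the 10% of cells with most held 85.3%, 88.8% and 95.5% of its Aspn UMIs. In the Ptprc gate, used as background, that share was 91.51% at P15 and 90.37% at P25, so the unevenness does not set Ibsp cells apart. In the Pappa2 gate at P15 that share was 26.3%, and the median cell stood at 1406 CPM. Bgn, by contrast, had a UMI in at least 77.4% of cells of every mesenchymal gate. A median cell of the Ibsp and Ifitm5 gates showed 4 of the 9 members in each library, and 1 or 0 in the Ptprc and Epcam cells. The Pappa2 gate showed 5, and 69.5% of its cells at P15 had 5 or more.

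**Figure D4:**
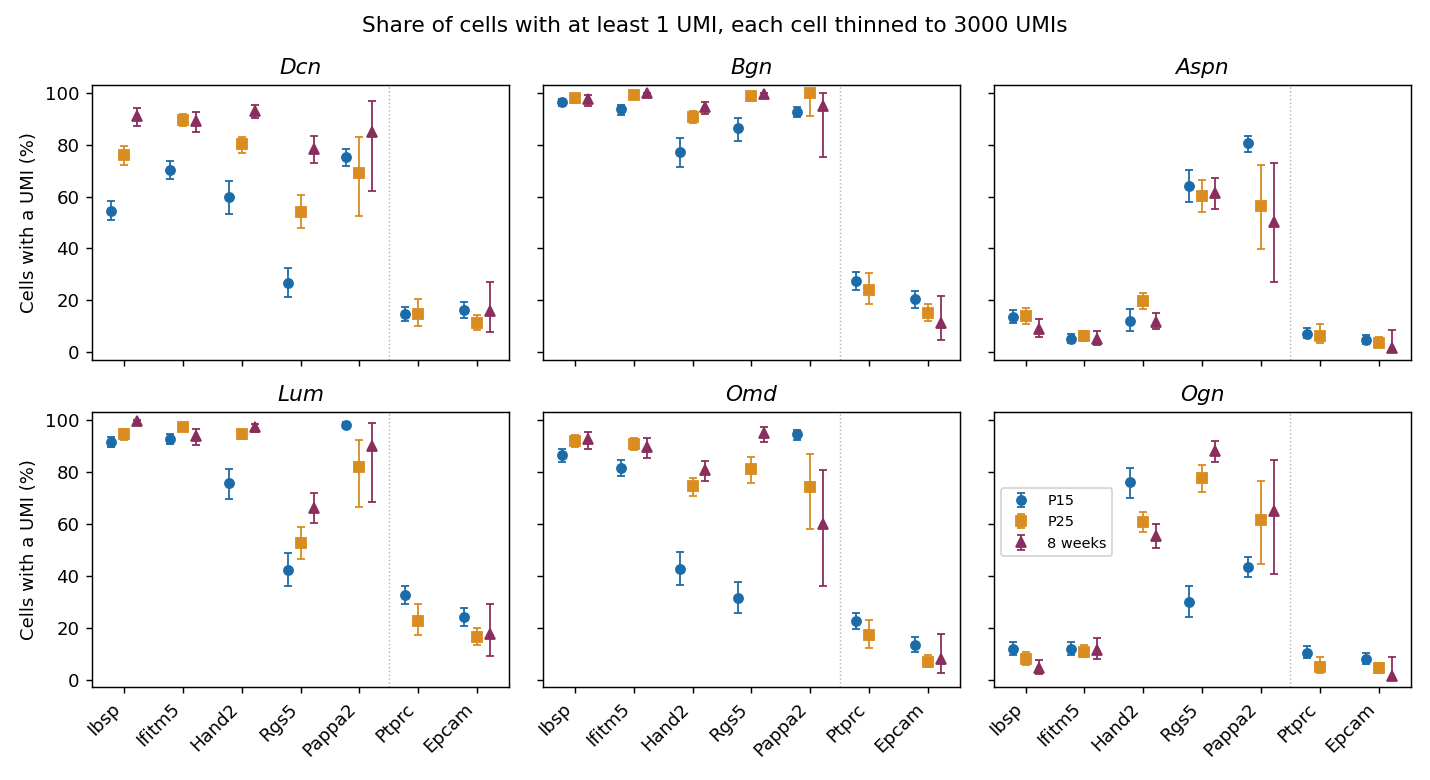
Share of cells with at least 1 UMI (%) for 6 members in each gate and library, each cell thinned to 3000 UMIs, with exact 95% binomial intervals. Bgn and Lum were in most mesenchymal cells, with the exception of Lum in the Rgs5 gate (42.3% at P15), whereas Aspn in the Ibsp, Ifitm5 and Hand2 gates was in at most 19.7% and Ogn in the Ibsp and Ifitm5 gates in at most 11.9%.

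The chromosome 13 neighbours were also compared cell by cell. In the Hand2 gate at P15, 10.7% of cells had both Aspn and Ogn, 65.4% had Ogn without Aspn and 1.28% had Aspn without Ogn. The Pappa2 gate at P15 had 33.6% of cells for both, 46.8% with Aspn only and 9.78% with Ogn only. In the Rgs5 gate the share with both was 14.5%, 45.8% and 54.9% in the 3 libraries. Omd, which lies between them, was in 86.5% of all Ibsp cells at P15, with or without Aspn. Aspn and Omd together were in 12.9% of these cells and Aspn without Omd in 0.677%. Both were in 20.6% of Rgs5 cells at P15 and Aspn without Omd was in 43.5%. No test was made of these shares. The share with both that each gene's own share would give was not worked out, so they do not show that the neighbours go together.

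Cells outside the gates held 67.7%, 64.1% and 60.0% of all UMIs of the 3 libraries. They held 64.8%, 85.3% and 84.5% of the Aspn UMIs, above their share of all UMIs at P25 and 8 weeks but not at P15, and 78.6%, 71.1% and 69.0% of those of Ogn. Grouped by single markers, without a test, cells with Mia held Ogn at 1421, 1149 and 1255 CPM and Aspn at 942.7, 1135 and 613.0, so both neighbours were high. Cells with Wif1, a secreted Wnt inhibitor, held Omd at 2071, 3738 and 3304, above the Mia cells (2545, 2814 and 2690) at P25 and 8 weeks but not at P15. Cells with Cpz were at 1187, 794.0 and 737.4 for Ogn. In cells with Mmp3, a matrix protease, Dcn stood at 347.8, 4286 and 10220 and Prelp at 26.5, 197.5 and 237.1 in the 3 libraries, over 46, 35 and 40 cells.

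**Figure D5:**
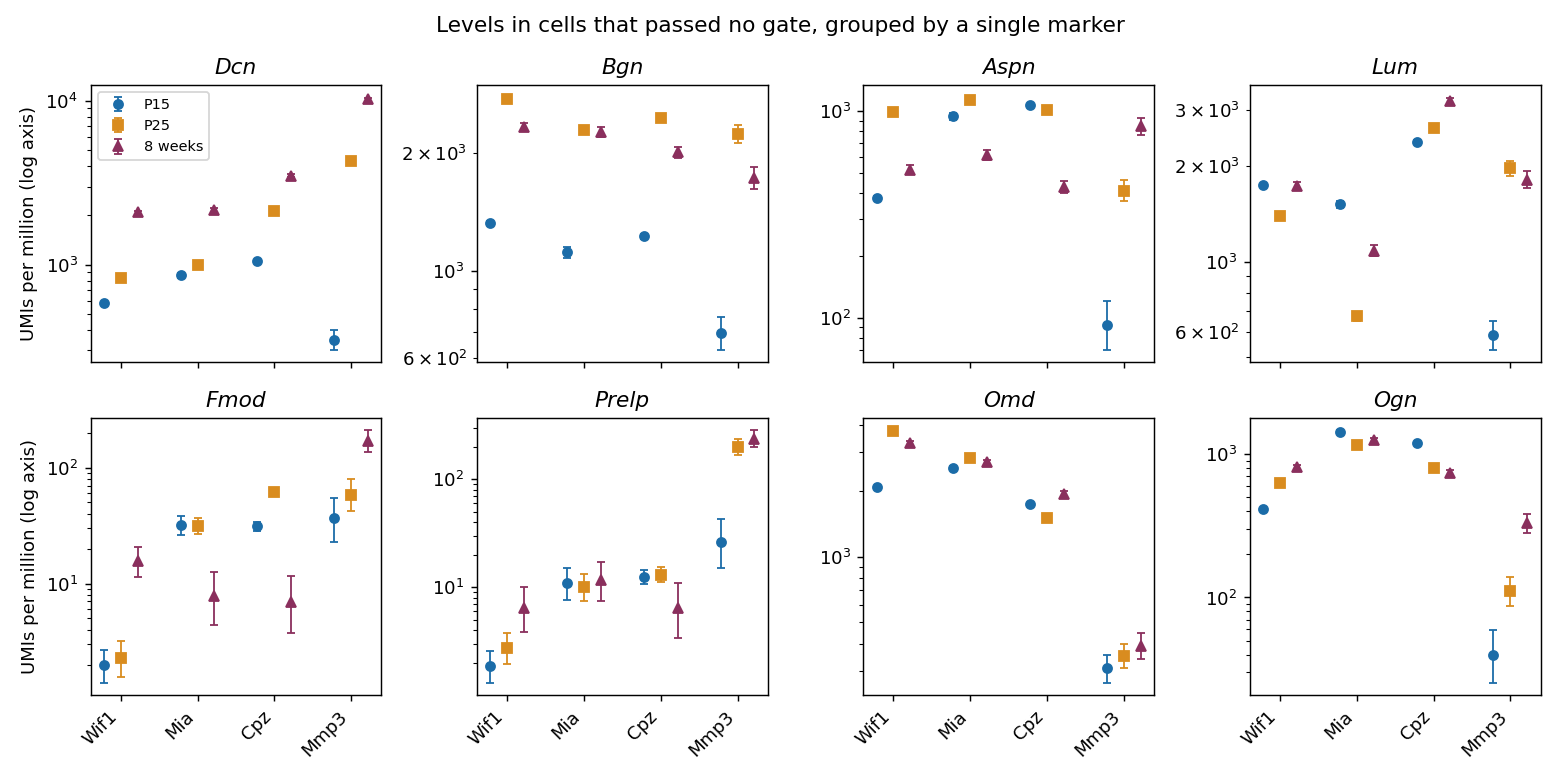
Levels (CPM, log axis, exact 95% Poisson intervals) of 8 members in cells that passed no gate and had the marker Wif1, Mia, Cpz or Mmp3, by library. Dcn and Prelp were highest in the Mmp3 cells of P25 and 8 weeks, and Omd was lowest in Mmp3 cells (308.0 to 390.9).

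Genes that make, bind or cut these proteoglycans were read in the same fit, on lists chosen with earlier results of these data known. Of 9 further family genes 6 were tested, and Podn, a related proteoglycan, fell in the Hand2 gate (-3.09 ± 0.55, edgeR adjusted p = 0.0113). Of 25 genes for enzymes and a transporter (Slc26a2) of the chondroitin and dermatan sulfate chain 24 were tested. Chst13, a chondroitin 4-O-sulfotransferase, rose in the Ifitm5 gate by 4.86 ± 0.51 (adjusted p = 0.000511), from at most 0.935 CPM (TMM scale) in the Ibsp gate to between 17.8 and 28.5. Dse, the epimerase that turns chondroitin into dermatan sulfate, rose in the Pappa2 gate (1.10 ± 0.23, adjusted p = 0.0394), and Chst12 fell in the Rgs5 gate (-1.44 ± 0.38, adjusted p = 0.0439). With the block 3 of the 24 passed in the Rgs5 gate, where 10.4% of all genes passed. The additions were Dse (0.71 ± 0.17, edgeR adjusted p = 0.023) and Papss2 (-0.90 ± 0.25, adjusted p = 0.0401). DESeq2 called 3 of the list as well, but the share of all genes that it called was not worked out, so these cannot be weighed. In the Hand2 gate 0 of 24 passed by edgeR or DESeq2 while 7 had an unadjusted p under 0.05. The share of all genes under that unadjusted p was not counted, so the 7 cannot be weighed.

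Of 12 genes for enzymes and a transporter (Slc35b2) of keratan sulfate and of tyrosine sulfation 9 were tested. In the Rgs5 gate the keratan sulfate sulfotransferases Chst1 (2.90 ± 0.78, edgeR adjusted p = 0.0482) and Chst2 (1.79 ± 0.34, adjusted p = 0.013) rose. Chst1 was sparse there, at 23.75, 8.77 and 6.25 CPM (TMM scale) in the 3 libraries. Of the carriers of that chain named above, Lum fell in this gate and Omd did not pass (0.20 ± 0.54, adjusted p = 0.922). Tpst2, a tyrosine sulfotransferase, fell in the Rgs5 (-1.46 ± 0.24, adjusted p = 0.00685) and Pappa2 (-1.16 ± 0.25, adjusted p = 0.0443) gates, and Fut8 fell in the Hand2 gate (-1.03 ± 0.24, adjusted p = 0.0477). Among 14 fibrillar and associated collagens, 5 fell in the Ifitm5 gate, where 0.365% of all genes fell, and none rose, among them Col3a1 (-1.66 ± 0.28, adjusted p = 0.0127) and Col6a3 (-1.73 ± 0.38, adjusted p = 0.0474). Their median was -0.35, against 0.00 over all genes. With the block, in a fit that called 3.61% of all genes, the same 5 fell. Col11a2, which is also on the marker list of the Ifitm5 gate, rose (4.28 ± 0.80, edgeR adjusted p = 0.0196). Col12a1 fell in the Rgs5 gate (-1.37 ± 0.23, adjusted p = 0.00751).

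Of 14 genes of proteases that cut the family and of protease enhancers (Pcolce and Pcolce2) 12 were tested. Adamts1, a proteoglycan-cutting protease, rose in the Hand2 (2.07 ± 0.39, edgeR adjusted p = 0.0173), Rgs5 (2.34 ± 0.40, adjusted p = 0.00861) and Pappa2 (2.49 ± 0.40, adjusted p = 0.0115) gates, the gates in which Ogn rose. Adamts5 rose in the Pappa2 gate (1.49 ± 0.24, adjusted p = 0.0103) and the collagenase Mmp13 in the Rgs5 gate (3.25 ± 0.85, adjusted p = 0.0463). Of 13 ligands and receptors tested, Tgfb3 rose in the Hand2 (0.87 ± 0.18, adjusted p = 0.0277), Rgs5 (0.92 ± 0.18, adjusted p = 0.0149) and Pappa2 (1.08 ± 0.19, adjusted p = 0.0157) gates. Bmp2 fell in the Rgs5 (-2.65 ± 0.57, adjusted p = 0.0218) and Pappa2 (-3.29 ± 0.62, adjusted p = 0.0307) gates, and Bmp4 in the Rgs5 gate (-2.25 ± 0.58, adjusted p = 0.0425). Tgfb1 fell in the Rgs5 gate too and passed with and without the library block (with it -1.35 ± 0.29, edgeR adjusted p = 0.0153).

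With the library block every call on these lists was kept and others were added. That fit called 3.61% of all genes for the Ifitm5 gate, 5.4% for Hand2, 10.4% for Rgs5 and 2.96% for Pappa2. The added genes are named because they passed, a choice made with their values in view. Podn also fell in the Ifitm5 gate (-1.55 ± 0.35, edgeR adjusted p = 0.0337), Podnl1 rose in the Hand2 gate (1.85 ± 0.43, adjusted p = 0.0328) and Ecm2 rose in the Rgs5 gate (1.22 ± 0.29, adjusted p = 0.0221). Of the 12 genes tested on the protease list the block called 2 in the Ifitm5 gate, where Htra1 (-1.75 ± 0.24, adjusted p = 0.0035) and Mmp9 (-3.45 ± 0.77, adjusted p = 0.0388) fell. It called 4 in the Rgs5 gate, with Mmp2 lower (-1.23 ± 0.20, adjusted p = 0.00482) and Adamts5 higher, and 4 in the Pappa2 gate, with Htra1 and Mmp13 higher. Of the 13 ligands and receptors it called 2 in the Hand2 gate, adding Bmp2 (-1.79 ± 0.43, adjusted p = 0.0379), 7 in the Rgs5 gate and 3 in the Pappa2 gate. The additions there were Tgfbr2 (-1.26 ± 0.30), Tgfb2 (1.17 ± 0.29) and Lrp1 (0.45 ± 0.13) in the Rgs5 gate and Lrp1 (0.94 ± 0.13) in the Pappa2 gate.

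The members did not follow a single pattern over the 15 sums. The highest correlation of log2 levels between a pair of members was 0.777, of Bgn with Omd, then 0.719, of Aspn with Fmod, and the lowest was -0.478, of Lum with Ogn. Of the chromosome 13 neighbours, Aspn and Ogn gave 0.668, Aspn and Omd 0.307 and Omd and Ogn -0.116. Over the 4590 genes with at least 50 CPM in a sum, the closest to Ogn were App (0.954), Dpep1 (0.951) and Cdkn1c (0.921), and the closest to Aspn were Fgfr3 (0.907), Glul (0.893) and Mmp13 (0.881). Lum was closest to Chst12 (0.891), Cbfb (0.886) and Prex1 (0.883), Bgn to Atp6ap1 (0.945), H2-T23 (0.908) and Rabac1 (0.879), and Dcn to Scd2 (0.859), Pdpn (0.822) and Srprb (0.807). For Omd they were Serpinf1 (0.853), Nbl1 (0.813) and Twist2 (0.805), for Prelp Mgst1 (0.947), Mfap5 (0.940) and Prss23 (0.927), and for Fmod Sntb2 (0.913), Hspb1 (0.888) and Wfdc2 (0.856). These correlations describe 15 sums that share libraries in groups of 5, and carry no test.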

How the data were processed

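Sorted reporter-positive cells were run on the 10x 3′ single-cell platform (v3.1 kit), 1 library each at P15, P25 and 8 weeks. For each library the authors deposited whole-number UMI counts per gene and cell, without normalization, made with Cell Ranger against mm10 (6.1.2 per the submitters' processing notes, 6.0.1 in the header of the P25 matrix). Genes were joined by identifier. All cells were kept and doublets were not called. The members and gene lists were chosen with earlier results of these data known.

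Counts were summed per gate and library with at least 20 cells. Levels are UMIs per 1000000 UMIs of the sum (CPM) with exact 95% Poisson intervals, shares carry exact binomial intervals (Clopper-Pearson), and both cover counting error only. Sums held between 284775 and 19092482 UMIs. The 15 sums were compared with edgeR 4.0.16 (TMM, filterByExpr, robust quasi-likelihood test, Benjamini-Hochberg adjustment) in R 4.3.3, which was tested on simulated data. DESeq2 1.42.0 was an alternative. Sums of a library come from the same pooled animals, and deviations of same-library sums from their gate means correlated in every pair (lowest 0.111), which is why a fit with the library as a block is given. The genes named beside the members are the 3 closest in correlation of log2(level + 10) and, per list and comparison, up to 2 of the most raised and 2 of the most lowered genes past an adjusted p of 0.05. Tgfb1 and the genes added by the block are named beyond this rule. Alternatives changed scaling, test, filter, block, gate thresholds, cells kept and libraries. Sums and intervals were made in Python 3.11.15 with scipy 1.17.1, numpy 2.4.6 and pandas 2.3.3. The study's P6 library was not analysed here.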

Additional observations from a re-analysis of the deposited data

Results flagged for a closer look

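Omd and Ogn differed between P15 and 8 weeks in opposite directions in different gates, past 2-fold each way. The log2 ratio of the level at 8 weeks to that at P15 was 1.53 for Omd in the Hand2 gate and 2.30 in the Rgs5 gate, but -1.10 in the Pappa2 gate. For Ogn it was 1.65 in the Rgs5 gate and -1.51 in the Ibsp gate. With a single library per age the difference between gates was not tested. Mural markers were raised for 7 of 7 genes in the Rgs5 gate at P15 and for 1 of 7 at 8 weeks, the Pappa2 gate of 8 weeks held 21 cells, and the part of these in the ratios was not tested. Ogn in the Ibsp gate of P15 was below the level of the Ptprc gate but above that of Epcam cells. With the Epcam level subtracted its log2 ratio there was -0.92, inside 2-fold, so its opposite direction no longer passed.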

How the results depend on the processing

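Calls against the Ibsp gate depended most on the library left out. Without a library, genes called ran from 2 to 484 for the Ifitm5 gate (161 in the fit reported), from 2 to 230 for Hand2 (264), from 2 to 1079 for Rgs5 (670) and from 1 to 383 for Pappa2 (152). Members called ran from 0 to 0, from 0 to 1, from 0 to 2 and from 0 to 2, with 0 in each case without P25 or without 8 weeks. The cause was not tested. With the library as a replicate block, 445, 665, 1287 and 365 genes were called, and 1 member for Ifitm5 and 2 for Hand2. The block changed no call of a member other than those of Dcn, Bgn and Aspn given beside the results. DESeq2 called 437, 566, 1168 and 566 genes. The fit of the 2 gates compared alone called 436 genes for Hand2 and 1 member for Pappa2. Stricter gates called 424 genes for Hand2, and 48 genes and 1 member for Pappa2, whose P25 and 8-week sums then had 16 and 6 cells and were left out. Looser gates called 41 genes for Ifitm5. Cells kept in every gate they passed gave 41 (Ifitm5), 172 (Hand2) and 361 (Pappa2) genes. Without the cells with the most UMIs, 68 genes were called for Ifitm5 and 66 for Pappa2, whose 8-week sum then had 17 cells and was left out, and without the low-count filter 1 member for Pappa2. After the data were seen, the P15 sum of the Rgs5 gate alone gave 408 genes and 1 member, its P25 and 8-week sums 1 member, and the P15 sum of the Pappa2 gate 7 genes and 0 members.

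For age, looser gates left 1 member past 2-fold in the Ibsp gate and gave 1 in the Ifitm5 gate. The Ifitm5 gate also gave 1 under TMM scaling, 1 with cells kept in every gate passed and 1 after subtraction of the Epcam level. The share of all genes past 2-fold under these settings was not counted, so these counts cannot be weighed. Subtraction of the Ptprc level was not run, since that gate held 19 cells at 8 weeks, and the Pappa2 gate gave no value under stricter gates or without the cells with the most UMIs.

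Of 440 repeated fold changes of members 28 turned sign, none of them in a member that passed (for a library left out, the range over the 3 is given). In the Ifitm5 gate these were Lum without P25 (-0.09 to 0.49), Ogn without 8 weeks (-0.10 to 0.83) and Prelp under stricter gates (0.98), looser gates (0.26) and cells kept in every gate (0.34). In the Hand2 gate they were Aspn under stricter gates (0.62) and cells kept in every gate (0.07), Dcn with cells kept in every gate (-0.12) and without P15 (-0.07 to 0.12), Prelp without P15 (-0.58 to 2.16), and Fmod with DESeq2 (0.03), the block (0.46), stricter (0.80) and looser gates (0.46), cells kept in every gate (0.68) and without P25 (-1.29 to 1.59). In the Rgs5 gate they were Bgn with cells kept in every gate (0.03), without P15 (-0.20 to 0.07) and in the P25 and 8-week sums (0.25), Dcn in those sums (0.21), and Omd without 8 weeks (-0.13 to 0.56) and in the P15 sum (-1.70). In the Pappa2 gate they were Dcn under stricter gates (-0.28) and in the P15 sum (-0.56), and Omd under stricter gates (0.44), without the cells with the most UMIs (0.09), without 8 weeks (-0.61 to 0.09) and in the P15 sum (0.26). Each P15 sum was set against the Ibsp sums of all 3 libraries. Within the P15 library Dcn was higher in the Pappa2 gate, at 807.1 CPM (TMM scale) against 445.6 in the Ibsp gate.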
